A study of Mus musculus with 12 samples.

Results

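Cultured stromal cells that had been given 5 genes together were set against the same kind of culture given a control vector. The comparison used the 3 libraries titled as revitalized mesenchymal stromal cells (rMSC) and the 3 titled as control stroma (control), chosen by these titles, so 6 of the 12 libraries of the series. Both groups were C57BL/6J mouse bone marrow cells, sorted as CD45(-), Ter119(-), CD31(-) and Scf-GFP(+), a gate without leukocytes, erythroid cells or endothelium whose cells have the stem cell factor reporter on. Both were then grown in alpha-MEM with 20% fetal bovine serum and 10 ng/ml basic FGF. The rMSC cultures carried Klf7, Ostf1, Xbp1, Irf3 and Irf7, and the control cultures a control vector whose features the labels do not give. RNA from 1000 to 5000 sorted cells was amplified and sequenced as 150 bp single reads. Whether a group's 3 libraries were separate animals, cultures or clones is not given in the labels. The p-values therefore measure only the spread between these libraries, which may be technical, and a difference between cultures cannot be told apart from the effect of the 5 genes.

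Bone marrow stromal cells of this kind lie along blood vessels and feed blood stem cells with membrane-bound and secreted factors, among them stem cell factor (the gene Kitl), Cxcl12 and angiopoietin 1. These factors are known to decline when the cells are grown on plastic. Irf3 and Irf7 are the transcription factors that switch on type I interferon and antiviral genes after a cell senses foreign nucleic acid. Xbp1 drives the unfolded protein response, which enlarges the folding and secretory machinery of the endoplasmic reticulum (ER), once its mRNA has been spliced by Ern1. Klf7 is a zinc finger transcription factor of the Krüppel-like family, and Ostf1 is a cytoplasmic adaptor protein first described for its action on osteoclast formation.

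The libraries held 61394898 to 74265031 counts in 14910 to 15347 genes with a count, and the 10 most abundant genes took 10.4 to 10.9% of them. Levels below are CPM, counts scaled to a common library size after TMM normalization, and a log2 fold change is rMSC against control ± SE, with a Benjamini-Hochberg adjusted p from edgeR's quasi-likelihood test over the 13775 genes tested. The groups lay far apart and their libraries close together. Correlations of log2 CPM across genes were 0.990 to 0.991 within groups and 0.822 to 0.824 between them, and the biological coefficient of variation was 7.06%. At an adjusted p under 0.05, 74.0% of all genes passed, 36.3% as higher and 37.7% as lower in rMSC. With a fold over 2 as well, 29.5% passed, 14.4% as higher and 15.1% as lower. The groups did not overlap in 76.8% of all genes, and the median log2 fold change was -0.02. The counts for each gene list below are to be read against these shares.

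**Figure D1:**
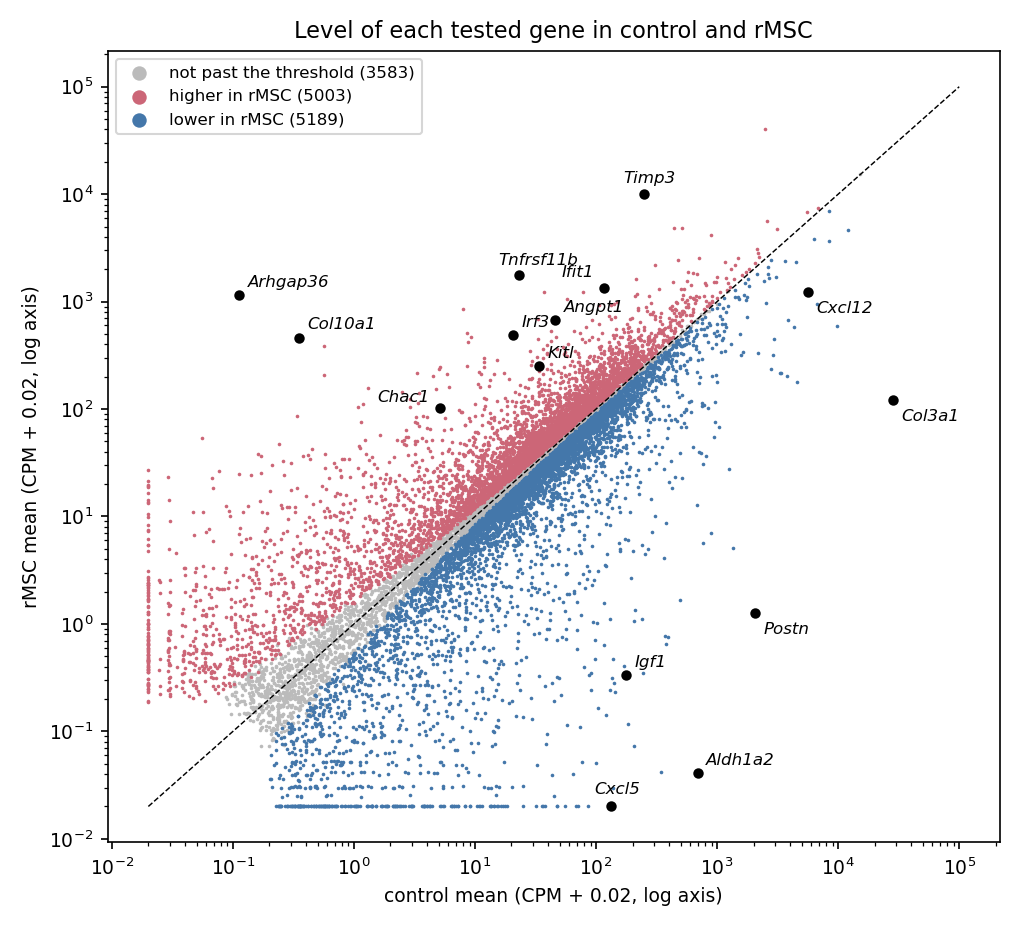
Mean level of each of the 13775 genes tested in control (x axis) and rMSC (y axis), in CPM + 0.02 on log axes, each point 1 gene, coloured by its call, with the dashed line marking equal levels and black points naming examples. Genes lie on both sides of the line in nearly equal number, 5003 higher and 5189 lower, and some reach 0 counts in 1 group (the edges at 0.02).

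The 5 transduced genes were higher in every rMSC library than in any control library. Irf3 (chromosome 7, 44997648 to 45002848, GRCm38.p6) stood at 21.4, 20.0 and 20.0 CPM in control and 481, 488 and 482 CPM in rMSC (log2 fold change 4.56 ± 0.04, adjusted p = 3.18e-18). Klf7 (chromosome 1, 64029448 to 64122345) stood at 16.2, 16.2 and 15.3 CPM in control and 76.8, 72.9 and 75.8 CPM in rMSC (log2 fold change 2.24 ± 0.06, adjusted p = 1.05e-13). In both genes the control libraries were all low, the rMSC libraries all high, and the change was larger for Irf3.

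Irf7 (chromosome 7, 141263183 to 141266499) stood at 80.8, 79.7 and 74.3 CPM in control and 269, 251 and 236 CPM in rMSC (log2 fold change 1.69 ± 0.05, adjusted p = 7.91e-13). Ostf1 (chromosome 19, 18580364 to 18631813) stood at 79.9, 78.3 and 74.8 CPM in control and 236, 239.9 and 236 CPM in rMSC (log2 fold change 1.61 ± 0.04, adjusted p = 5.22e-14). Xbp1 (chromosome 11, 5520641 to 5525993) stood at 285, 287 and 284 CPM in control and 512, 519 and 511 CPM in rMSC (log2 fold change 0.85 ± 0.03, adjusted p = 3.14e-12). Xbp1 had the smallest change of the 5, under 2-fold, and was already well expressed in control stroma. Reads from the vector and from the cell's own gene fall on the same symbol in these counts, and spliced and unspliced Xbp1 are not separated, so neither can be told apart here. In freshly sorted Scf-GFP(+) cells (3 libraries, on a common scale of all 12 libraries) Irf3 ranged over 38.5 to 46.9 CPM, Irf7 over 40.5 to 47.4, Klf7 over 10.4 to 14.4, Ostf1 over 79.0 to 82.6 and Xbp1 over 245 to 333 CPM. The rMSC level of each gene was above the range of the fresh cells.

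**Figure D2:**
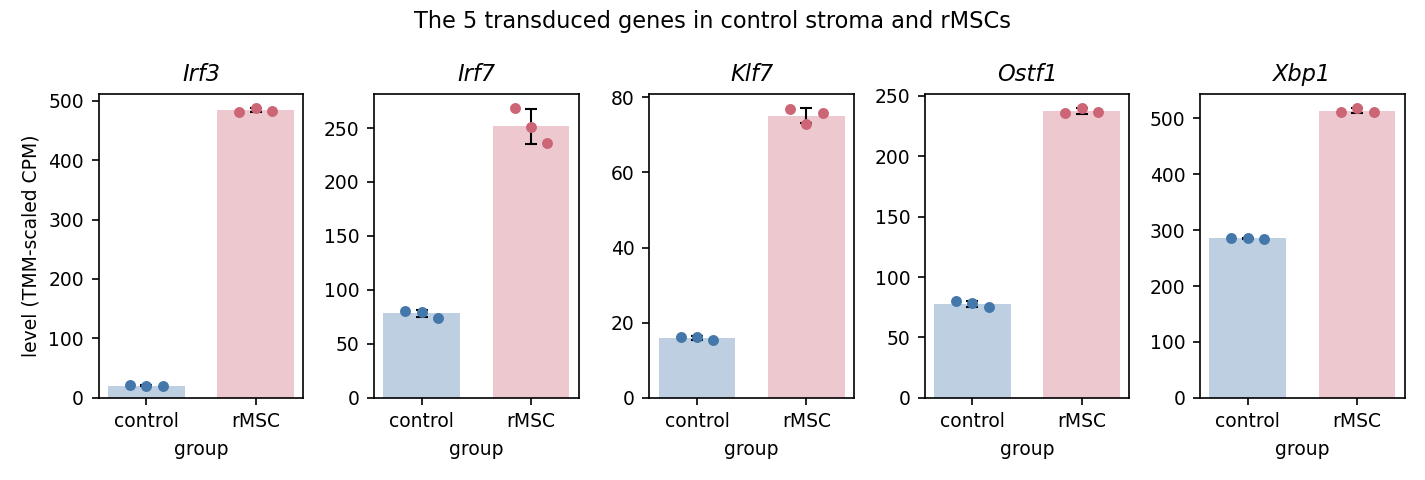
Level of each transduced gene in CPM (y axis, from 0, a separate scale per panel) in control and rMSC, with points for the 3 libraries of a group, bars for the mean and error bars for the SD. Every rMSC point lies above every control point, from a mean of 20.5 to 484 CPM for Irf3 down to 285 to 514 CPM for Xbp1.

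Of 23 relatives of these factors that were tested (other interferon regulatory factors, other Krüppel-like factors and the ER stress sensors), 12 rose, 6 fell and 5 did not pass, with a median of 0.24. Klf5 (2.48 ± 0.15), Klf4 (1.59 ± 0.08) and Klf13 (1.19 ± 0.08) rose, and Klf12 fell (-1.18 ± 0.21), all zinc finger factors of the same family as Klf7. Named after their values were seen, Irf9, the DNA-binding part of the interferon-activated complex, rose from 88.5 to 191 CPM (1.11 ± 0.04) and Ern1, the sensor that splices Xbp1, from 17.3 to 33.7 CPM (0.96 ± 0.07).

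The niche factors moved in both directions. Of 20 genes for factors that act on blood stem cells and progenitors, 10 rose, 9 fell and Il15 did not pass (log2 fold change 0.33 ± 0.17, adjusted p = 0.0984), with 8 higher and 7 lower over 2-fold, and the median was 0.21. Kitl, stem cell factor and the gene of the reporter on which the cells had been sorted, rose. It stood at 37.4, 35.5 and 28.9 CPM in control and 258, 237 and 257 CPM in rMSC (log2 fold change 2.88 ± 0.08, adjusted p = 1.83e-13). Angpt1, the Tie2 ligand that keeps blood stem cells quiescent, stood at 45.6, 46.3 and 46.4 CPM in control and 683, 675 and 662 CPM in rMSC (log2 fold change 3.87 ± 0.03, adjusted p = 3.08e-18). Neither gene's groups overlapped. In bulk libraries, fewer cells with a transcript and less of it per cell cannot be told apart, which holds for every result here.

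Bmp4, a bone morphogenetic protein, stood at 3.42, 4.70 and 3.95 CPM in control and 85.1, 82.3 and 86.8 CPM in rMSC (log2 fold change 4.40 ± 0.09, adjusted p = 1.17e-14). Fgf7, a fibroblast growth factor that acts on epithelia, stood at 251, 272 and 268 CPM in control and 816, 803 and 814 CPM in rMSC (1.62 ± 0.03). Jag1, a Notch ligand, stood at 31.6, 34.5 and 33.5 CPM in control and 110.0, 111 and 124 CPM in rMSC (1.80 ± 0.06). All 3 were higher in each rMSC library than in any control library. Il7, the cytokine that lymphoid progenitors need, rose from 1.26 to 7.16 CPM (2.50 ± 0.24), and Flt3l, the ligand of the progenitor receptor Flt3, rose from 1.36 to 4.78 CPM (1.81 ± 0.19). Thpo, thrombopoietin, rose from 0.273 to 1.20 CPM (2.14 ± 0.42), at 62 to 100 counts in an rMSC library. Tgfb1, a cytokine of stem cell quiescence, rose by less than 2-fold (0.49 ± 0.06), and Csf1, the macrophage growth factor, rose by very little (log2 fold change 0.09 ± 0.03, adjusted p = 0.00862).

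A fall was seen for Cxcl12, whose product retains blood stem cells in the marrow. It stood at 5606, 5784 and 5591 CPM in control and 1239.6, 1209.6 and 1219 CPM in rMSC (log2 fold change -2.21 ± 0.03, adjusted p = 3.12e-17). The libraries of each group lay close together. With all 12 libraries in the fit the log2 fold change was again -2.21, with an adjusted p of 0.219. Vcam1, the adhesion molecule for blood progenitors, stood at 283, 290.5 and 289 CPM in control and 183, 204 and 198 CPM in rMSC (-0.56 ± 0.04). Igf1, insulin-like growth factor 1, was nearly lost, at 176, 177 and 178 CPM in control and 0.263, 0.0314 and 0.651 CPM in rMSC (log2 fold change -9.07 ± 0.20, adjusted p = 2.28e-14). Il6, an inflammatory cytokine, stood at 15.4, 13.9 and 13.7 CPM in control and 0.164, 0.0157 and 0.0566 CPM in rMSC (-7.51 ± 0.28). In both of the last genes no rMSC library reached 1 CPM.

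Spp1, osteopontin, fell from 8437 to 3688 CPM (-1.19 ± 0.03), Bmp6 from 6.28 to 0.351 CPM (-4.14 ± 0.28) and Ptn, pleiotrophin, from 41.8 to 14 CPM (-1.58 ± 0.08). Il11 fell from 2.28 to 0.637 CPM (-1.83 ± 0.33), and Lif, with under 1.3 CPM in every library, fell (log2 fold change -0.93 ± 0.39, adjusted p = 0.0462), a call that did not pass with DESeq2 (adjusted p = 0.055) or without control replicate 3 (0.179). Of the 9 factors that fell, 4 fell in the fit of all 12 libraries.

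Set beside freshly sorted Scf-GFP(+) cells, the order differed from gene to gene. Kitl ranged over 291 to 477 CPM in the fresh libraries, so that rMSC stood under that range and control farther below it. Bmp4 ranged over 65.5 to 124 CPM, a range that holds the rMSC levels. Angpt1 ranged over 77.3 to 101 CPM, above control and far under rMSC. Cxcl12 ranged over 25011 to 37811 CPM and Vcam1 over 1235 to 1917 CPM, above both cultures, with rMSC the farther away. Igf1 ranged over 107 to 131 CPM, below control and far above rMSC. Il7 at 45.4 to 95.5 CPM and Flt3l at 8.79 to 10.7 CPM were above both cultures, with rMSC the nearer. These levels are given as a description, without a test.

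**Figure D3:**
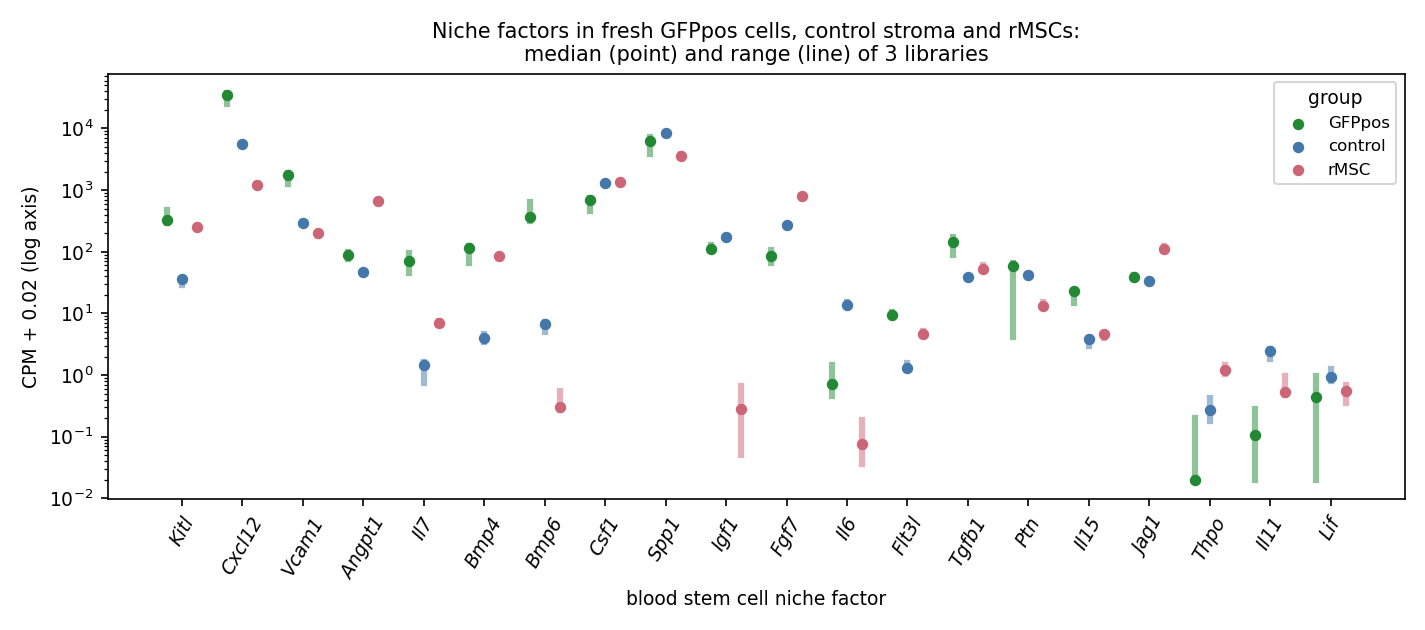
Level of each of the 20 niche factors in CPM + 0.02 (y axis, log scale) in fresh GFPpos cells, control stroma and rMSC, on the scale of all 12 libraries, with points for the median and lines for the range of 3 libraries. Kitl, Bmp4 and Il7 are higher in rMSC than in control and have fresh levels above control, whereas Cxcl12, Bmp6 and Vcam1 are lower in rMSC than in control although the fresh level is higher still.

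Markers of perivascular stroma, the cell type of origin, fell more often than they rose. Of 29 markers, 19 fell and 9 rose (14 and 6 over 2-fold) and the median was -0.82. The platelet-derived growth factor receptors that define mesenchymal stroma were present in both groups, although both fell, Pdgfra from 1087 to 338 CPM and Pdgfrb from 1100.3 to 622 CPM. Lepr, the leptin receptor that defines these cells in the marrow, rose from 0.281 to 17.8 CPM (5.96 ± 0.19), and Adipoq, the other defining transcript, fell from 0.530 to 0.0204 CPM. In control stroma Pdgfra and Pdgfrb were thus abundant, and Lepr and Adipoq nearly absent. Hp, haptoglobin, stood at 495, 500.3 and 475 CPM in control and 1.51, 1.57 and 1.84 CPM in rMSC (log2 fold change -8.21 ± 0.06, adjusted p = 7.17e-19). Lpl, lipoprotein lipase, stood at 916, 866 and 908 CPM in control and 7.09, 6.55 and 7.18 CPM in rMSC (-7.01 ± 0.05). Cxcl14, a chemokine, fell from 86.9 to 0.311 CPM (-8.11 ± 0.10) and Nes, the filament protein nestin, from 12.9 to 0.180 CPM (-6.12 ± 0.37). For these 4 genes every rMSC library lay under 8 CPM, and no groups overlapped.

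The genes that Irf3 and Irf7 are known to control rose as a group. Of 39 interferon-stimulated antiviral genes tested, 32 rose and 4 fell, 28 and 1 of them over 2-fold, with a median of 1.70 against -0.02 for all genes. Ifit1, which binds foreign RNA without a proper cap, stood at 112, 116 and 118 CPM in control and 1381, 1357 and 1301 CPM in rMSC (log2 fold change 3.55 ± 0.04, adjusted p = 8.93e-18). Ifit3, its partner, stood at 106, 102 and 109.8 CPM in control and 951, 916 and 912 CPM in rMSC (3.13 ± 0.04). Oas1a, a sensor of double-stranded RNA that makes the messenger 2-5A, stood at 12.5, 11.3 and 12.3 CPM in control and 106, 109 and 105 CPM in rMSC (3.15 ± 0.06). Oas1g, a gene of the same cluster, stood at 1.33, 1.35 and 1.24 CPM in control and 32.7, 35 and 33.9 CPM in rMSC (log2 fold change 4.69 ± 0.10, adjusted p = 1.25e-14). Each stood higher in all rMSC libraries than in any control library, and Oas1g was close to absent in control. The copies of the Oas1 and Ifit3 genes are close in sequence, so how reads were split among them is uncertain. The 4 genes that fell were Oasl1, Ifi27, Sp100 and Ifitm3, between -1.48 and -0.18, named after their values were seen.

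The promoters of these genes are shown because they carry the element through which interferon regulatory factors act. Each is 300 bases long, 250 before and 50 after the start of transcription, on the strand of the gene, taken from RefSeq on GRCm38.p6. Capitals mark each match to the core of the interferon-stimulated response element, GAAA followed by any 2 bases and GAAA, sought on both strands. The Oas1g promoter lies at chr5:120887564-120887863 on the minus strand, the Oas1a promoter at chr5:120907476-120907775 on the minus strand and the Ifit1 promoter at chr19:34640639-34640938 on the plus strand.
Oas1g: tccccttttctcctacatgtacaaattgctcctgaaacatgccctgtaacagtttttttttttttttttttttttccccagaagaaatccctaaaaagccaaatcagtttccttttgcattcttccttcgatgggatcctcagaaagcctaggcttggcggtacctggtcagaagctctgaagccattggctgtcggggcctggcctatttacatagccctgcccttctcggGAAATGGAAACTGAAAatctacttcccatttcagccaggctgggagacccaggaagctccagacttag
Oas1a: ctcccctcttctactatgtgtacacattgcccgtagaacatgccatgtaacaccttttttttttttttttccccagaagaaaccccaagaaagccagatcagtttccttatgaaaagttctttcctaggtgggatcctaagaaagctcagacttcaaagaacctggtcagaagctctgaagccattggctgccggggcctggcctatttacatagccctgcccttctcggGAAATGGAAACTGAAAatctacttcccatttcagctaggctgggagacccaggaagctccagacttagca
Ifit1: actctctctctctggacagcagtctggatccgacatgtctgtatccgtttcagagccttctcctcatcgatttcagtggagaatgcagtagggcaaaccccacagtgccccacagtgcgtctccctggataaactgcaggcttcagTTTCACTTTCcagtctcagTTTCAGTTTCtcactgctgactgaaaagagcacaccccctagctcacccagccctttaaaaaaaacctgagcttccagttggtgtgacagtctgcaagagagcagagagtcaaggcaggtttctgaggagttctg

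In Oas1g and Oas1a a pair of cores overlaps by 4 bases and begins at -18 and -12 (Oas1g) or -20 and -14 (Oas1a) from the start of transcription. Both promoters were identical at 261 of 294 aligned bases. In Ifit1 a pair of separate cores lies on the other strand, beginning at -104 and -85. The core was found in 14 of 29 antiviral genes with a promoter in the table (48.3%) and in 9 of 10 interferon-inducible GTPases (90.0%), against 385 of 10287 genes tested (3.74%) and 3.44% of all promoters of this length. Over the 4 interferon lists together, 25 genes held the core, of which 18 rose, 5 fell and 2 did not pass (median 1.26), and 34 did not hold it, of which 19 rose, 11 fell and 4 did not pass (median 0.27). With a promoter in the table, only 2 of 15 interferon ligand, receptor and JAK-STAT genes and 1 of 11 nucleic acid sensing genes held the core. The split over the pooled lists therefore also follows the list a gene came from, and a link between core and rise was not tested. A match of letters is a description of the promoter and not a bound site.

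Of 14 interferon-inducible GTPases, which attack the vacuoles of intracellular parasites, 9 rose and 5 fell, with a median of 1.21. Igtp stood at 36.9, 36.3 and 36.5 CPM in control and 115, 118 and 116 CPM in rMSC (1.67 ± 0.04), and Gbp3 rose from 41.4 to 126 CPM (1.61 ± 0.05). Tgtp1 and Tgtp2, near-identical copies, went the other way. Tgtp1 fell from 22.9 to 3.95 CPM (-2.54 ± 0.09) and Tgtp2 from 16.2 to 2.43 CPM (-2.75 ± 0.13), although their promoters hold the core as well. So the group did not move as one.

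Upstream of these genes the changes went both ways. Of 12 genes of interferon receptors and JAK-STAT signalling, 4 rose and 8 fell (median -0.74). Stat2, a part of the interferon-activated complex, stood at 109.8, 99.9 and 106 CPM in control and 374, 368 and 381 CPM in rMSC (1.83 ± 0.04). Jak2, a receptor kinase, fell from 154 to 57.5 CPM (-1.42 ± 0.04), and Socs3, which shuts off cytokine receptors, fell from 228 to 16.2 CPM (log2 fold change -3.81 ± 0.06, adjusted p = 4.02e-16). Both receptor chains for type I interferon were among the genes that fell, Ifnar1 (-0.76 ± 0.04) and Ifnar2 (-1.15 ± 0.05), named after their values were seen. The interferon genes Ifng, Ifnl2 and Ifnl3 had 0 counts in all 6 libraries, and Ifnb1, interferon beta, at most 16 counts in any.

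Of 14 sensors and adaptors for foreign nucleic acid, 7 rose and 4 fell. Adar, the RNA-editing enzyme, rose from 69.2 to 155 CPM (1.16 ± 0.05), Tlr3, the endosomal receptor for double-stranded RNA, from 13.9 to 29.5 CPM (1.08 ± 0.08) and Mavs, the adaptor of the RNA sensors, from 49.0 to 80.2 CPM (0.71 ± 0.05). Tmem173, the DNA-sensing adaptor STING, fell and stood at 65.9, 64.2 and 61.2 CPM in control and 18.3, 15.9 and 15.4 CPM in rMSC (-1.95 ± 0.07). Antigen presentation was mixed. Of 16 genes of MHC class I presentation, 9 rose and 6 fell, with the immunoproteasome subunits Psmb8 (-1.86 ± 0.08) and Psmb9 (-1.11 ± 0.15) and the class I heavy chain H2-K1 (-1.44 ± 0.04) lower and Nlrc5, the transactivator of the class, higher (1.36 ± 0.15). The summed level of the class I list was nonetheless higher in rMSC, at 3964 to 4072 CPM, than in control, at 2559 to 2606 CPM. Reads of the H2 genes may be split among near copies. Of 5 class II genes tested, H2-DMb1, a peptide loading chain, rose from 6.79 to 30.2 CPM (2.15 ± 0.08), and Cd74 fell from 0.271 to 0.0787 CPM (-1.78 ± 0.68), a call that did not hold with DESeq2.

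Most of the inflammatory transcripts that could be tested fell. Of 28 chemokines and inflammatory cytokines, 16 passed the filter on low counts and 7 had 0 counts in all 6 libraries. Of the 16 tested, 15 fell and 1, Ccl5, rose. Of the 15, 13 fell over 2-fold. The median of the 16 was -5.16 (-3.93 with all 12 libraries and -4.06 with no filter on low counts). Genes with hardly a count in rMSC, among them Cxcl5, Ccl11 and Tnfsf11, passed the filter through control alone. They could therefore only be called lower, as could any gene below with 0 counts in all rMSC libraries. Cxcl5, which attracts neutrophils, stood at 129, 131 and 135 CPM in control and at 0 counts in all 3 rMSC libraries, at least 2845-fold lower against a floor of 3 counts per library. Ccl11, which attracts eosinophils, stood at 31.0, 33.9 and 31.4 CPM in control and at 0 counts in rMSC, at least 694-fold lower. Il33, an alarmin, stood at 342, 405 and 392 CPM in control and 0.755, 0.440 and 0.679 CPM in rMSC (log2 fold change -9.24 ± 0.11, adjusted p = 3.92e-17). Tnfsf11, RANKL, the factor that osteoclasts need, stood at 21.7, 27.9 and 25.7 CPM in control and had 2 counts in rMSC replicate 1 and 0 in the others. These bounds allow for counting error alone, because PCR copies of a molecule were counted separately.

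Complement and acute-phase genes fell with them, 12 of 13, and 11 of the 12 over 2-fold (median -3.56). Pros1, protein S, stood at 732, 727 and 750.0 CPM in control and 34.9, 41.2 and 40.1 CPM in rMSC (-4.25 ± 0.05), and Cfb, complement factor B, fell from 92.7 to 2.26 CPM (-5.36 ± 0.10). Saa3, an acute-phase apolipoprotein, fell from 5.19 to 0.0324 CPM (-7.31 ± 0.41). In the NF-kB pathway itself more genes rose than fell, most of them by less than 2-fold. Of 14, 9 rose and 3 fell, with a median of 0.25, and only 2 rose and 1 fell over 2-fold. Bcl3, a nuclear partner of NF-kB, was the one that fell, from 70.2 to 1.59 CPM (-5.45 ± 0.10), and Icam1, the leukocyte adhesion molecule, rose from 1.60 to 5.23 CPM (1.71 ± 0.19). Nfkbib rose (0.50 ± 0.08) and Nfkbie fell (-0.62 ± 0.13), both inhibitors of NF-kB. With all 12 libraries in the fit, 4 of the 14 rose.

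The immediate-early genes, which respond within minutes to growth factors and stress, fell in 13 of 18 cases, 12 over 2-fold, with 1 higher and a median of -1.14. The count higher was 2 with DESeq2 and without rMSC replicate 2, and 3 with voom and without control replicate 3. Fos stood at 36.5, 36.6 and 42.5 CPM in control and 3.38, 5.74 and 5.43 CPM in rMSC (-2.98 ± 0.15). Jun stood at 104, 97.4 and 113 CPM in control and 12.8, 14.2 and 14.1 CPM in rMSC (log2 fold change -2.94 ± 0.07, adjusted p = 4.09e-14). Egr2 fell from 83.5 to 3.44 CPM (-4.60 ± 0.10) and Egr3 from 15.9 to 1.39 CPM (-3.50 ± 0.18), and none of these 4 genes had groups that overlapped.

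The genes that Xbp1 is best known for did not rise together. Of 25 ER chaperones and folding enzymes, 8 rose and 16 fell, 1 and 4 over 2-fold, with a median of -0.19. Calr, the lectin chaperone calreticulin, stood at 1743, 1814 and 1706 CPM in control and 715, 717 and 709.5 CPM in rMSC (log2 fold change -1.30 ± 0.03, adjusted p = 3.09e-14). Pdia4 fell from 753 to 294 CPM (-1.36 ± 0.03) and Pdia5 from 116 to 53 CPM (-1.13 ± 0.05), both protein disulfide isomerases. Ero1l, the oxidase that recharges these isomerases, rose and stood at 114, 113 and 119 CPM in control and 319, 331 and 331 CPM in rMSC (1.5 ± 0.04). Degradation genes rose more often. Of 16 genes of ER-associated degradation, 10 rose and 5 fell (median 0.28). Herpud1 rose from 88.3 to 309 CPM (1.81 ± 0.04), Derl1 from 222 to 456 CPM (1.04 ± 0.03), Edem2 from 56.5 to 108 CPM (0.93 ± 0.04) and Os9 from 420.1 to 669 CPM (0.67 ± 0.03), all of which help to find or export misfolded proteins.

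Of 35 genes of the translocon, signal peptidase and ER-Golgi transport, 13 rose and 14 fell with a median of -0.00, and only Arfgap3, a regulator of Golgi coats, passed 2-fold (1.13 ± 0.04). Sec63 rose (0.79 ± 0.04), and Ssr2 (-0.78 ± 0.05) and Kdelr3 (-0.81 ± 0.04), a receptor that returns chaperones to the ER, fell. The ER stress response element is CCAAT followed by any 9 bases and CCACG, sought on either strand. It lay in promoters of 7 of 20 chaperone genes (35%), against 0.175% of genes tested that had a promoter in the table. Over the ER lists, 9 genes held it, of which 2 rose, 5 fell and 2 did not pass (median -0.15). The UPR element TGACGTGG was held by 5 genes, 1 of which rose and 4 fell. None of the named ER genes that rose and had a promoter in the table held either element in this window.

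By contrast, genes of the integrated stress response, which Atf4 switches on when translation is held back, rose nearly as 1 block. Of 21 genes, 19 rose and 2 fell, with 17 of the 19 over 2-fold and a median of 2.08. Chac1, which degrades glutathione, stood at 6.09, 4.47 and 4.72 CPM in control and 101, 107 and 98.6 CPM in rMSC (log2 fold change 4.33 ± 0.09, adjusted p = 1.92e-14). Trib3, a feedback pseudokinase, stood at 12.7, 11.9 and 12.2 CPM in control and 120.1, 123 and 125 CPM in rMSC (3.32 ± 0.05). Nupr1, a stress-induced chromatin protein, stood at 38.8, 34.7 and 35.5 CPM in control and 298, 292 and 304 CPM in rMSC (3.04 ± 0.05). Ddit3, the transcription factor CHOP, rose from 23 to 138 CPM (2.58 ± 0.06). No library of one group reached the other in any of these genes. Ddit4 and Cebpb were the ones that fell (-0.97 ± 0.07 and -0.94 ± 0.04, named after their values were seen). In the fresh Scf-GFP(+) libraries Nupr1 ranged over 216 to 264 CPM, between control and rMSC, while Chac1 ranged over 0.518 to 2.80 and Trib3 over 0 to 1.04 CPM, under both cultures.

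**Figure D4:**
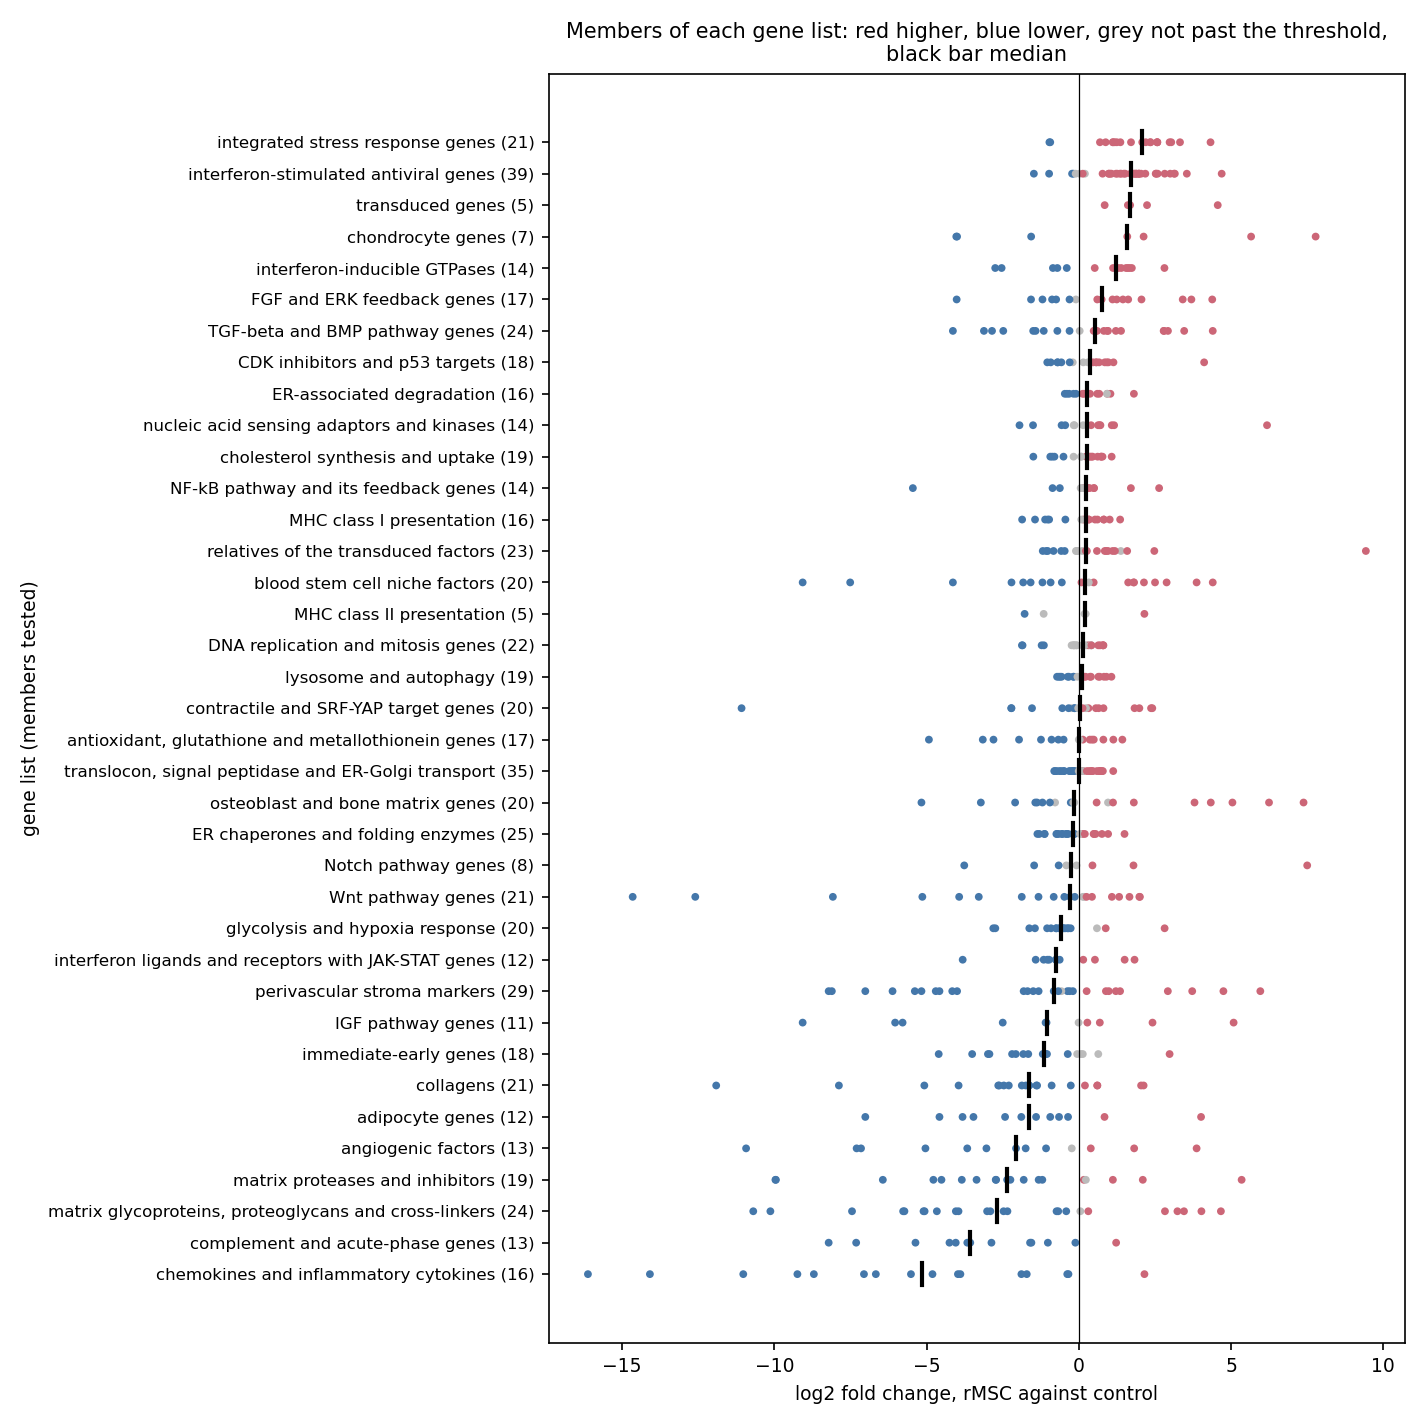
Log2 fold change of rMSC against control (x axis) for the tested members of each gene list other than the markers of other cell types (rows, with the number tested), each point 1 gene, red where higher, blue where lower and grey where not past the threshold, with a black bar for the list's median. Medians of the lists shown run from -5.16 for chemokines and inflammatory cytokines to 2.08 for integrated stress response genes. Fitted values of genes with 0 counts in a group (the far points) are not bounds.

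The matrix changed in content. Of 21 collagens, 16 fell and 5 rose, 14 and 2 over 2-fold, with a median of -1.63. Col3a1, the type III fibrillar chain, stood at 27948, 28311 and 29162 CPM in control and 124, 115 and 125 CPM in rMSC (log2 fold change -7.88 ± 0.04, adjusted p = 3.78e-20). Col15a1, a basement membrane collagen, stood at 201, 195 and 216 CPM in control and had at most 6 counts in an rMSC library (-11.91 ± 0.15). Col14a1 fell from 53.3 to 1.57 CPM (-5.07 ± 0.13) and Col7a1 from 8.51 to 0.552 CPM (-3.95 ± 0.20). In fresh Scf-GFP(+) cells (scale of all 12 libraries) Col3a1 ranged over 507 to 591 CPM and Col15a1 over 14.5 to 25.4 CPM. Both lay between control and rMSC. The fresh range of Col14a1, 0.802 to 16.7 CPM, held the rMSC levels, and Col7a1, at 0 to 0.145 CPM, lay under both cultures. The summed level of the list was 59745 to 61933 CPM in control and 17626 to 18014 CPM in rMSC, and no groups of these genes overlapped.

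Of 24 matrix glycoproteins, proteoglycans and cross-linkers, 17 fell and 6 rose (median -2.69). Postn, periostin, stood at 2013, 1902 and 2239 CPM in control and 1.44, 0.723 and 1.53 CPM in rMSC (log2 fold change -10.69 ± 0.12, adjusted p = 2.93e-17). Fbln1, fibulin 1, fell from 684 to 12.9 CPM (-5.73 ± 0.04), Loxl2, a collagen cross-linking oxidase, from 270.2 to 4.96 CPM (-5.77 ± 0.10) and Mfap4 from 10.5 to 0.309 CPM (-5.10 ± 0.25). The summed level of the list was 52458 to 54172 CPM in control and 72412 to 77219 CPM in rMSC, and Thbs1, thrombospondin 1, which rose from 2469 to 40234 CPM (4.03 ± 0.03, named after its value was seen), made up much of the rMSC sum. Of 19 proteases and their inhibitors, 14 fell, all over 2-fold, and 4 rose (median -2.35). Adamts1, a protease of proteoglycans, fell from 515 to 22.6 CPM (-4.51 ± 0.05) and Mmp3 from 22.4 to 0.260 CPM (-6.44 ± 0.25). Timp3, an inhibitor of matrix metalloproteases, rose and stood at 245, 239 and 263 CPM in control and 10333, 10157 and 9915 CPM in rMSC (log2 fold change 5.35 ± 0.04, adjusted p = 7.17e-19).

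Each lineage list held genes that rose and genes that fell, as 36.3% and 37.7% of all genes did. The adipocyte genes were mostly lower. Of 20 osteoblast genes, 8 rose and 8 fell, with a median of -0.17 whose sign turned when control replicate 1 or control replicate 2 was left out (0.25 and 0.26). Tnfrsf11b, osteoprotegerin, the soluble decoy of RANKL, stood at 24.8, 22.3 and 22.2 CPM in control and 1809, 1729.8 and 1727 CPM in rMSC (log2 fold change 6.25 ± 0.05, adjusted p = 1.05e-18). Together with Tnfsf11, given above, this put the decoy far higher and the ligand near 0 in rMSC. Omd, osteomodulin of bone matrix, stood at 36.5, 37.1 and 36.9 CPM in control and 1226, 1185 and 1235 CPM in rMSC (5.04 ± 0.03), and Dlx5, an osteoblast transcription factor, rose from 0.150 to 25.6 CPM (7.38 ± 0.19). Alpl, the bone alkaline phosphatase, fell from 6.24 to 0.164 CPM (-5.17 ± 0.44). Fresh Scf-GFP(+) cells held 641 to 791 CPM of Alpl and 36.1 to 44.1 CPM of Dlx5, and 3.14 to 8.56 CPM of Tnfrsf11b.

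Of 12 adipocyte genes, 10 fell and 2 rose (median -1.65), with Zfp423, a preadipocyte factor (-3.82 ± 0.29), and Fabp4, a fatty acid carrier (-3.46 ± 0.20), lower and Plin4, a lipid droplet protein, higher (4.01 ± 0.21). Of 7 chondrocyte genes, 4 rose and 3 fell. Comp, a cartilage matrix protein, stood at 8.73, 9.39 and 9.83 CPM in control and 493, 452 and 465 CPM in rMSC (5.66 ± 0.05), and Sox6 rose from 0.0275 to 6.64 CPM (7.78 ± 0.36), whereas Sox5, its usual partner in cartilage, fell from 5.47 to 0.337 CPM (-4.0 ± 0.33) and Prg4, lubricin, from 14.1 to 0.870 CPM (-4.02 ± 0.17). Of 20 contractile genes and targets of SRF and YAP, 9 rose and 8 fell (median 0.05). Ctgf, a connective tissue growth factor and YAP target, stood at 435, 489 and 499.7 CPM in control and 2422, 2484 and 2467 CPM in rMSC (2.37 ± 0.04), and Lmod1 rose (2.41 ± 0.20), while Tagln (-2.21 ± 0.05) and Myl9 (-2.22 ± 0.04), both of the smooth muscle apparatus, fell. With all 12 libraries in the fit, 2 chondrocyte genes rose, and 4 contractile genes rose and 4 fell.

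Genes of growth factor pathways are given next, to be read beside all genes tested, of which 36.3% rose and 37.7% fell. Of 24 genes of the TGF-beta and BMP pathways, 14 rose and 9 fell (median 0.54). Tgfbr1, the type I receptor for TGF-beta, fell and stood at 217, 212 and 209.6 CPM in control and 21.5, 25.9 and 26.2 CPM in rMSC (log2 fold change -3.12 ± 0.06, adjusted p = 1.22e-14). Of 17 genes of FGF signalling, 10 rose and 6 fell (median 0.75). Fgfr2 stood at 11.9, 12.9 and 10.9 CPM in control and 126, 123 and 130.4 CPM in rMSC (3.41 ± 0.06), Fgfr3 rose from 0.574 to 12.1 CPM (4.38 ± 0.20) and the feedback gene Spry1 from 34.0 to 142 CPM (2.06 ± 0.04), whereas the ERK phosphatase Dusp4 fell from 56.6 to 3.51 CPM (-4.01 ± 0.09). Both cultures held basic FGF in the medium.

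Of 21 Wnt pathway genes, 7 rose and 12 fell (median -0.29), 5 and 8 over 2-fold. Sfrp4, a secreted Wnt modulator like the other genes named here, stood at 1334, 1375 and 1367 CPM in control and 4.94, 6.18 and 4.04 CPM in rMSC (log2 fold change -8.08 ± 0.09, adjusted p = 2.09e-17). Sfrp1 fell from 3330.2 to 219 CPM (-3.93 ± 0.04). Sfrp2, at 46.9, 49.2 and 46.5 CPM in control, and Rspo3, an enhancer of Wnt signals, at 11.4, 10.9 and 12.1 CPM, were at 0 counts in all rMSC libraries, at least 1027-fold and 247-fold lower. With all 12 libraries in the fit, 3 Wnt pathway genes rose.

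Of 11 genes of the IGF pathway, 4 rose and 6 fell (median -1.06, but -0.51 without rMSC replicate 2 and -0.64 without rMSC replicate 3). Igfbp3, a binding protein that holds IGF in the circulation, fell from 56.6 to 0.876 CPM (-6.03 ± 0.17) and Pappa, the protease that frees IGF, from 38.2 to 0.709 CPM (-5.79 ± 0.30), along with Igf1. Igf2 rose from 0.167 to 5.70 CPM (5.08 ± 0.38). Of 8 Notch genes, 3 rose and 3 fell, with the target gene Hey1 higher (7.50 ± 0.38) at up to 7.53 CPM, and the receptor Notch3 (-3.76 ± 0.09) and the target Hes1 (-0.66 ± 0.08) lower. Of 13 angiogenic factors, 9 fell and 3 rose (median -2.06). Hgf, hepatocyte growth factor, stood at 179, 186 and 185 CPM in control and had at most 10 counts in an rMSC library (-10.93 ± 0.15). Angptl4 fell from 97.9 to 0.689 CPM (-7.15 ± 0.09) and Angpt4 from 157 to 4.80 CPM (-5.04 ± 0.06), while Angpt1 rose, as given above.

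Cell cycle genes are to be read against all genes tested, of which 36.3% rose and 37.7% fell. Of 22 genes of DNA replication and mitosis, 7 rose and 4 fell, with 11 not past the threshold and a median of 0.15. Their summed level was 314 to 329 CPM in control and 298 to 365 CPM in rMSC. The 4 that fell were Mcm2 (-1.22 ± 0.08), Mcm3 (-1.85 ± 0.09) and Mcm5 (-1.87 ± 0.19), subunits of the replicative helicase, and Tyms (-1.15 ± 0.09), which makes thymidylate. None of the 7 that rose passed 2-fold, and without rMSC replicate 2 the count was 4 and the median -0.04. Of 18 inhibitors of cyclin-dependent kinases and p53 targets, 9 rose and 6 fell (median 0.38). Cdkn1c, the inhibitor p57, stood at 2.80, 2.16 and 3.03 CPM in control and 48.3, 45.8 and 44.5 CPM in rMSC (log2 fold change 4.12 ± 0.10, adjusted p = 1.30e-13). Cdkn2b rose from 56.8 to 125 CPM (1.14 ± 0.04) and Cdkn1a, p21, from 129 to 254 CPM (0.97 ± 0.05), and the p53 target Zmat3 fell (-0.92 ± 0.09).

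Glycolysis genes mostly fell. Of 20 genes of glycolysis and the hypoxia response, 17 fell and 2 rose, 5 and 1 over 2-fold (median -0.59). Hk2, an inducible hexokinase, fell from 52.0 to 7.40 CPM (-2.81 ± 0.09), Pfkl, the liver form of phosphofructokinase, from 465 to 171 CPM (-1.44 ± 0.03) and Pfkfb3 (-1.63 ± 0.12), whereas Pfkp, the platelet form of phosphofructokinase, rose and stood at 51.7, 52.7 and 55.3 CPM in control and 382, 379 and 364 CPM in rMSC (2.82 ± 0.04). Of 19 genes of cholesterol synthesis and uptake, 11 rose and 5 fell (median 0.26), with Lss, which closes the sterol rings, higher (1.08 ± 0.05) and Dhcr7, Hsd17b7 and Hmgcs1, enzymes of the same path, lower (-1.49 ± 0.06, -0.94 ± 0.07 and -0.87 ± 0.05).

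Of 19 genes of lysosomes and autophagy, 10 rose and 8 fell (median 0.10). The ion channel Mcoln1 (1.07 ± 0.04), the autophagy receptor Sqstm1 (0.91 ± 0.03) and their regulator Tfeb (0.83 ± 0.12) rose, and the enzyme Gaa fell (-0.71 ± 0.03). Of 17 antioxidant, glutathione and metallothionein genes, 7 rose and 8 fell (median -0.00). Gpx3, the secreted glutathione peroxidase, stood at 6665, 6799 and 6594 CPM in control and 1012, 938 and 926 CPM in rMSC (-2.80 ± 0.03). Mgst1 (-4.92 ± 0.07) and Gsta4 (-3.15 ± 0.17), glutathione transferases, and Mt2, a metallothionein (-1.96 ± 0.05), fell too.

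Some genes were on in 1 group and off in the other. Among the 7741 genes at 20 CPM or more in either group, 18 of those at that level in control had at most 3 counts in each rMSC library, and 3 were so in the other direction. The 12 genes with the lowest fold changes among those that reached 20 CPM were led by Cxcl5, given above. Col28a1, a collagen of nerve and skin, stood at 122, 128 and 133 CPM in control, and Scn7a, a sodium channel, at 86.2, 80.3 and 90.6 CPM, both with 0 counts in rMSC, at least 2763-fold and 1852-fold lower. Il1rl2, the receptor of interleukin 36, the kinesin Kif1a, Lgi2, Vtn (vitronectin), Sfrp2, Tmem47, the teneurin Tenm3 and the claudin Cldn15 were also at 0 counts in all rMSC libraries, at least 768 to 1543-fold lower. Aldh1a2, which makes retinoic acid, stood at 692, 704 and 673 CPM in control and had 4 counts in rMSC replicate 2 and 0 in the others.

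At the other end stood genes that control stroma hardly transcribed. Arhgap36, an inhibitor of protein kinase A that activates Hedgehog signalling, stood at 0.134, 0.144 and 0 CPM in control and 1108, 1201 and 1159 CPM in rMSC (log2 fold change 13.54 ± 0.13, adjusted p = 5.43e-18). Col10a1, the collagen of hypertrophic cartilage, stood at 0.255, 0.447 and 0.285 CPM in control and 431, 458 and 494 CPM in rMSC (log2 fold change 10.45 ± 0.10, adjusted p = 6.07e-18). Stmn2, a microtubule regulator of neurons, stood at 0.617, 0.807 and 0.210 CPM in control and 405, 358 and 384 CPM in rMSC (9.44 ± 0.14). None of these was above 1 CPM in a control library, and all were far above that in rMSC. Fgf13, an intracellular FGF relative that binds sodium channels, rose from 0 counts to 26.2, 24.4 and 29.9 CPM, at least 626-fold, and Susd5 from 0 counts to 20.8, 21.5 and 22.1 CPM, at least 502-fold. Others were Krt18 (a keratin of simple epithelia, from 0.00894 to 23.5 CPM), the synaptic adhesion gene Nlgn1 (from 0.0358 to 53.9 CPM), the transcription factor Bcl11b (from 0.0467 to 22.7 CPM), the clathrin adaptor Snap91 of synapses (from 0.550 to 209 CPM), the potassium channel subunit Kcnf1 (from 0.321 to 87.0 CPM) and Tmem184a (from 0.142 to 38.0 CPM).

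Most markers of other cell types were at low levels in both groups. Some were not, among them Runx1, Ebf1, Egr2, S100b and Lyz2. The part of these markers in the results was not tested. Of 12 pan-haematopoietic markers, 3 passed the filter on low counts, Ptprc (CD45) had at most 2 counts in a library and Spi1 had 0, and the list's sum of 196 to 214 CPM in control and 136 to 142 CPM in rMSC was nearly all Runx1, a factor of stroma and bone as well (from 187 to 134 CPM). Cd53, a leukocyte tetraspanin, was lower in rMSC (from 14.5 to 0.0566 CPM), and Coro1a, an actin regulator, higher (from 0.922 to 5.25 CPM). The 13 endothelial markers summed to 15.6 to 17.0 CPM in control and 4.27 to 4.70 CPM in rMSC, with Cdh5 and Cldn5 at 0 counts in every library. Tek, the receptor of Angpt1, carried much of the control sum (from 7.91 to 0.0109 CPM), with Egfl7 next (from 5.49 to 2.29 CPM).

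The monocyte and macrophage markers summed to 9.21 to 11.7 CPM in control and 62.5 to 63.6 CPM in rMSC. Lyz2, lysozyme, held most of the rMSC sum (3.56, 3.49 and 4.64 CPM in control and 51.6, 50.8 and 49.5 CPM in rMSC), Cd14 also stood higher (from 4.05 to 8.45 CPM), and the complement C1q genes were at 0 counts in all 6 libraries. The erythroid markers summed to 31.0 to 36.7 and 37.7 to 42.0 CPM, carried by Tfrc, the transferrin receptor, in control (from 32.2 to 6.59 CPM) and by Alas2, a haem synthesis enzyme, in rMSC (0.201, 0.317 and 0.195 CPM in control and 35.3, 31.9 and 31.1 CPM in rMSC), with Hbb-b1 and Hba-a1 at 0. The B cell markers summed to 192 to 207 CPM in control and 4.65 to 5.25 CPM in rMSC, nearly all of it Ebf1 (from 201 to 4.80 CPM), a factor that marrow stroma transcribes too, with Pax5 and Ms4a1 at 0. Granulocyte markers summed to 7.88 to 8.77 and 0.279 to 0.644 CPM, mainly Prtn3 (from 7.50 to 0.268 CPM), with S100a8 at up to 4 counts. Megakaryocyte markers summed to 4.55 to 5.84 and 3.08 to 4.48 CPM, mainly Itga2b, which did not pass (log2 fold change -0.22 ± 0.19, adjusted p = 0.312). Vwf had under 1.2 CPM in every library, the only called gene among those named whose groups overlapped. Schwann cell markers summed to 79.9 to 95.3 and 68.4 to 72.3 CPM, with Sox10 at up to 2 counts. Of 5 tested, 3 rose, all over 2-fold, and 1 fell (median 2.88), and the sums were carried by Egr2 in control and by S100b in rMSC (from 2.68 to 63.2 CPM).

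Of the 191 genes named by rule, 189 passed the threshold and 188 of these had groups that did not overlap, against 76.8% of all genes. Most were named for the size of their change, so these counts describe them and test nothing.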

How the data were processed

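Raw read counts per gene were deposited by the authors, 24062 gene symbols for each library. Reads were aligned to mm10 with STAR 2.4.1c and counted with featureCounts 1.4.6, per the submitters' processing notes. Libraries came from SMART-Seq v4 and Nextera XT kits, per the labels' protocols, which do not mark strand, so overlapping antisense genes cannot be told apart. From these counts, 27 symbols turned into dates (0.268 to 0.369% of counts) were left out. The 6 libraries were fitted alone in edgeR 4.0.16 (R 4.3.3) with TMM scaling, filterByExpr and the quasi-likelihood F-test, two-sided, at a Benjamini-Hochberg adjusted p under 0.05. The SE is the absolute log2 fold change divided by the square root of F. Levels are mean CPM. The 5 transduced genes and all niche factors are named, plus up to 4 called members of each list, by size of change, whose higher mean reached 5 CPM, and the 12 highest and 12 lowest fold changes from 20 CPM. The members and lists were chosen with earlier results of these data known. Promoters (250 bases before to 50 after the start) came from RefSeq, GRCm38.p6. Alternatives were DESeq2 1.42.0, voom in limma 3.58.1, other scalings, filters, a fold threshold, all 12 libraries, a replicate block and each library left out. A few genes that this rule names are not reported here. The fit was tested on simulated data in which far fewer genes were changed than were called here. How the scaling behaves when most genes change was not tested by it.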

Additional observations from a re-analysis of the deposited data

How the results depend on the processing

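No named gene changed direction under any alternative. The counts of genes higher in rMSC than control and of genes lower in rMSC than control were 2506 and 2475 when tested against a fold of 1.5. Fitting all 12 libraries gave 3718 higher, 3640 of them shared with the 6-library fit, and 3874 lower, 3762 shared. In that fit the members lower were 4 niche factors, 2 antiviral genes, 0 MHC class II genes, 3 ER-associated degradation genes, 9 translocon genes and 4 contractile genes, and the members higher were 0 chemokines, 4 NF-kB genes, 0 complement genes, 2 chondrocyte genes, 4 contractile genes, 2 collagens, 2 replication genes and 3 Wnt pathway genes. The fresh libraries share the spread in that fit, and the cause of each loss was not tested. The count of MHC class II genes lower was also 0 with DESeq2, with no filter and with at least 50 counts in 3 libraries. The count of complement genes higher was 0 with at least 50 counts and with the replicate block. The count of immediate-early genes higher was 2 with DESeq2, RLE factors, at least 50 counts and the replicate block, and 3 with voom. Leaving out each library in turn gave 4882 to 4948 genes higher and 4942 to 5109 lower, 1 to 2 MHC class II genes higher and 0 to 1 lower, 0 to 1 complement genes higher, 1 to 3 immediate-early genes higher and 4 to 10 replication genes higher. Same-numbered libraries hardly deviated together (correlations 0.02, 0.05 and 0.01), so the numbers are not taken to pair the samples. Each rMSC library correlated best with the control of its own number, as did control replicates 1 and 2 with the rMSC of theirs, while control replicate 3 correlated best with rMSC replicate 1. The replicate block gave 4937 genes higher and 5106 lower. Among single named genes, 3019 values kept direction and side of the threshold and 31 lost significance, among them Lif and Vwf in several settings. Depth limits genes of a few counts, where 3 counts are 0.040 to 0.049 CPM.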

Other observations

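The homeobox genes of the Hoxb cluster on chromosome 11, looked at after their values were seen, had 0 counts in every rMSC library. Of 10 Hoxb genes in the files, 8 had more than 3 counts in every control library, and the cluster summed to 45.8 to 50.2 CPM in control and to 12.2 to 18.7 CPM in freshly sorted Scf-GFP(+) cells (scale of all 12 libraries). Hox genes are transcription factors that keep a cell's position along the body axis. Hoxa summed to 67.7 to 70.5 CPM in control and 91.4 to 93.7 CPM in rMSC, and Hoxc to 132 to 144 CPM and 160 to 170 CPM. Hoxd, at 6.62 to 10.6 CPM in the fresh cells, was low in both cultures, at 1.27 to 1.96 CPM in control and 0 to 0.098 CPM in rMSC. It was at 0 counts in rMSC replicates 2 and 3, and Hoxd8 went from 136, 75 and 87 counts in control to 4, 0 and 0 in rMSC. Genes on either side of Hoxb were still transcribed, with Ube2z at 134 CPM in control and 161 CPM in rMSC, Snf8 at 41.5 and 39.2 CPM, Snx11 at 14 and 13.5 CPM and Nfe2l1 at 309 and 736 CPM. The predicted gene Gm53, next to Hoxb9, went from 2.98 CPM to 0 counts. All 3 rMSC libraries share this absence, and whether they come from 1 culture or clone is not given in the labels.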
